A study of Mus musculus with 24 samples.

Results

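The comparison is between 2 mouse embryonic stem cell (mESC) lines, J1 and R1, and the epiblast of embryos at embryonic day (E) 5.5. Its members were chosen by the sample titles: the J1 and R1 arrays without the 2i inhibitors (4 arrays) and the E5.5 epiblast arrays (2 arrays), 6 of the 24 arrays of the series. Each array was a 1-colour Agilent expression microarray hybridised with labelled total RNA. The stem cells were grown in conventional mESC medium on feeder cells, from which they were separated before RNA was extracted, and the epiblasts were dissected by hand. Genotype, strain, sex, passage number and the number of embryos behind each RNA are not given in the sources used here. Whether the 2 replicates of a group are separate cultures or separate dissections is not stated. A p-value here therefore covers the spread between these samples, part of which may be technical. Each line is a single derivation, so the 2 lines were the replicates of an mESC in the main test. The other arrays of the series (epiblast stem cell lines, J1 in 2i, E6.5 epiblast and E7.5 ectoderm) enter below only as reference levels or to estimate the spread.

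Mouse ESCs are derived from the inner cell mass of the blastocyst, before implantation, and hold what is called naive pluripotency, which leukaemia inhibitory factor (LIF) sustains through Stat3. The epiblast forms an epithelium after implantation, loses the naive transcription factors and gains primed or formative factors such as Otx2 and Pou3f1. Nodal, FGF and Wnt signals later pattern this epithelium into the germ layers.

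A level is the log2 processed signal of a gene's probe relative to the 75th percentile of its array, so 0 is the 75th percentile. Probes bind with different strength, so a level is compared only between arrays and never between genes. The labels were first set against their markers. Zfp42 (Rex1), a zinc finger gene of naive cells, stood at 6.93 and 6.68 on the J1 arrays, 6.93 and 6.44 on the R1 arrays, and 0.68 and 0.08 on the E5.5 arrays. Fgf5, the ligand that marks early post-implantation epiblast, stood at 1.81 and 1.76 in J1, 0.83 and 0.81 in R1, and 4.85 and 4.58 at E5.5. Otx2, a homeobox factor of the primed state, stood at 4.87 and 4.70 in J1, 4.24 and 4.13 in R1, and 6.56 and 6.30 at E5.5. None of these 3 genes overlapped between the sides, and each lay on the side its label gives. Pou5f1 (Oct4), which both states require, was well above background on all 6 arrays.

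Markers of other cells did not lie evenly over the samples. Over 16 fibroblast markers, the summed signal, with 1 as the 75th percentile of the array, was 122 and 163 in J1 and 166 and 178 in R1, against 11.5 and 10.5 at E5.5. All 16 were well above background on each mESC array, and 9 and 10 of the 16 on the E5.5 arrays. The summed signal of 16 visceral endoderm markers, the tissue that encloses the epiblast, was 38.8 on E5.5 replicate 1 and 222 on E5.5 replicate 2, with 35.9 to 41.5 on the mESC arrays. Of these 16 markers, 10 were well above background on each mESC array, and 15 and 16 on the E5.5 arrays. Ttr, Afp, Apoa1, Apob and Fgb were well above background on no mESC array, while Cubn and Amn were on all 4. In bulk RNA, fewer cells of a type and less RNA per cell cannot be told apart. Results that could carry either signal are given below with these values, and with the 2 E5.5 arrays apart. The mESC arrays and the E5.5 arrays also shared no slide and no scan day, so slide, scan day and group cannot be told apart.

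**Figure D1:**
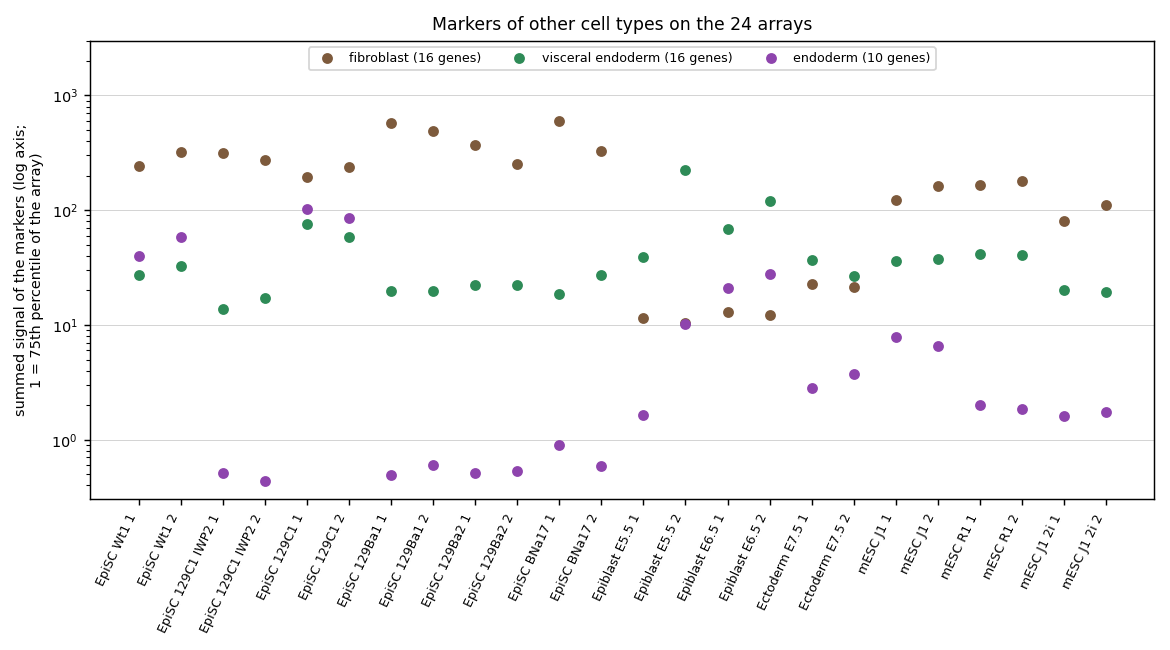
Summed signal of the marker genes of other cell types on each of the 24 arrays (log axis, 1 = 75th percentile of the array), 1 point per array and marker list. The fibroblast sum lies between 122 and 178 on the 4 mESC arrays and at 11.5 and 10.5 on the E5.5 arrays, and the visceral endoderm sum is 38.8 on one E5.5 array and 222 on the other.

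Across the genes tested the sides stood far apart. Of 13502 genes tested, 4375 (32.4%) passed a Benjamini-Hochberg adjusted p of 0.05 in limma with at least a 2-fold difference, the rule for a call throughout. Of these, 2375 (17.6% of genes tested) were higher in the mESC lines and 2000 (14.8%) were lower. These 2 shares are the background for the counts of called list members below. The median difference over all genes tested was 0.05. Among genes well above background on all 6 arrays, where a fold has a firm size, 93 calls were at least 16-fold higher and 4 at least 16-fold lower. The share of calls that were higher, 54.3%, moved to 70.3% when arrays were scaled to their median, which put the median of all genes at 0.34, and to 66.8% with a normexp background correction.

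The 12 largest rises among genes well above background on all 6 arrays were Fbxo15 (8.08), Esrrb (7.82), S100a6 (7.14), Tcl1 (7.08), Acta2 (6.74), Bcl3 (6.64), Ly6c1 (6.62), Ephx1 (6.52), Zfp42 (6.36), Fbln2 (6.19), Spp1 (6.14) and Adgre5 (6.02), as log2 differences. Fbxo15, Esrrb, Tcl1 and Zfp42 belong to naive pluripotency, while Acta2 (smooth muscle actin) and Fbln2 (a matrix protein) are at home in fibroblasts. Ephx1 had a second probe above background, with a difference of only 0.08. The epiblast stem cell arrays were also from cells kept on feeders. Of these, 10 are called untreated here, meaning only that their titles name no treatment with the inhibitor IWP2. They pool the lines Wt1 and 129C1 with the lines 129Ba1, 129Ba2 and BNa17, which were derived with a Wnt inhibitor. Over the 10 untreated arrays the median level was 7.49 for S100a6, 4.03 for Acta2, 4.84 for Ly6c1, 3.43 for Ephx1, 4.14 for Fbln2 and 4.55 for Spp1. It was 1.52 for Adgre5, 0.87 for Bcl3, -1.02 for Fbxo15, -2.08 for Esrrb, -5.66 for Tcl1 and -4.20 for Zfp42. The part of feeder RNA in these differences was not tested. Where a gene was above background on no E5.5 array, only a bound can be given. The largest of these were Mymx (at least 615-fold), Khdc3 (at least 519-fold), Ccl2 (at least 370-fold), Mgp (at least 261-fold), Jam2 (at least 218-fold) and Tm4sf1 (at least 155-fold). A second Jam2 probe above background differed by 3.87 on the log2 scale. In the untreated epiblast stem cell arrays the median level was -5.81 for Khdc3, -4.06 for Mymx, 3.68 for Ccl2, 3.80 for Mgp, 0.02 for Jam2 and 3.36 for Tm4sf1. Such a bound sets the mean of the 4 mESC arrays against the lowest signal that counted as above background on the E5.5 arrays, or the gene's own signal there where that was higher.

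The 12 largest falls were Car14 (-4.72), Rgl3 (-4.4), Cubn (-4.26), Oasl2 (-4.14), Prss12 (-3.94), Srgn (-3.82), Pou3f1 (-3.80), Sema6a (-3.71), Sox3 (-3.68), Amn (-3.65), Cthrc1 (-3.65) and Sall2 (-3.65). Cubn and Amn encode the 2 chains of the cubam receptor of visceral endoderm. Cubn stood at 0.80 on E5.5 replicate 1 and 4.28 on replicate 2, and Amn at 0.16 and 3.67, in step with the visceral endoderm sum. Its part in these falls was not tested. Prss12 and Srgn were not called without E5.5 replicate 2 (-2.25 and -2.07), without line J1 (-3.98 and -3.85) or without line R1 (-3.89 and -3.78), and Amn was not called without line J1 (-3.54) or line R1 (-3.75). Genes above background at E5.5 and on no mESC array included Ttr (at least 29.3-fold lower in mESC), Slc35d3 (at least 19.5-fold), Stxbp6 (at least 17.9-fold), Muc13 (at least 17.5-fold), Apob (at least 15.5-fold) and Trim12a (at least 15.1-fold). With E5.5 replicate 1 alone the bounds were 9.28-fold for Ttr, 4.42-fold for Muc13 and 3.75-fold for Apob, and with replicate 2 alone 92.7-fold, 69-fold and 64.5-fold. For Slc35d3, Stxbp6 and Trim12a replicate 1 alone gave the higher bound, 24.7-fold, 23.6-fold and 21.6-fold, against 15.4-fold, 13.5-fold and 10.6-fold. Second probes of Apob and Trim12a differed by -3.69 and -3.47 on the log2 scale.

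The naive pluripotency genes, Zfp42 among them, were higher in the mESC lines for 20 of the 21 tested and lower for none, with a median difference of 5.80. In all 21 the 4 mESC arrays lay above both E5.5 arrays, as they did in 37.6% of all genes tested. All 11 transcription factors of the list were called. Esrrb, an orphan nuclear receptor, was higher by 7.82 ± 0.55 (SE, adjusted p = 5.37e-05), which is 225-fold. It stood at 6.94 and 6.80 in J1, 7.15 and 7.01 in R1, and -0.02 and -1.67 at E5.5. Klf5 stood at 4.33 and 4.32 in J1, 4.23 and 4.21 in R1, and -1.16 and -1.35 at E5.5, so the 4 mESC arrays lay within a narrow band far above the embryo. Klf2 and Klf4, of the same Krüppel-like family, differed more between the E5.5 arrays. Klf4 was at -1.71 and 0.01 there and at 4.75 to 5.08 in the lines, and Klf2 was above background on 1 of the 2 E5.5 arrays only. Nr0b1 (Dax1) was higher by 5.95 ± 0.31, Tfcp2l1 by 5.79 ± 0.44 and Tbx3 by 5.80 ± 0.86. The E5.5 arrays lay apart for Tfcp2l1 (-2.73 and -1.14) and Tbx3 (-2.89 and 0.09), so the size of these 2 differences depends on the array. Prdm14, which keeps FGF signalling and DNA methylation low in naive cells, was above background on no E5.5 array and at least 54.8-fold higher in the lines.

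**Figure D2:**
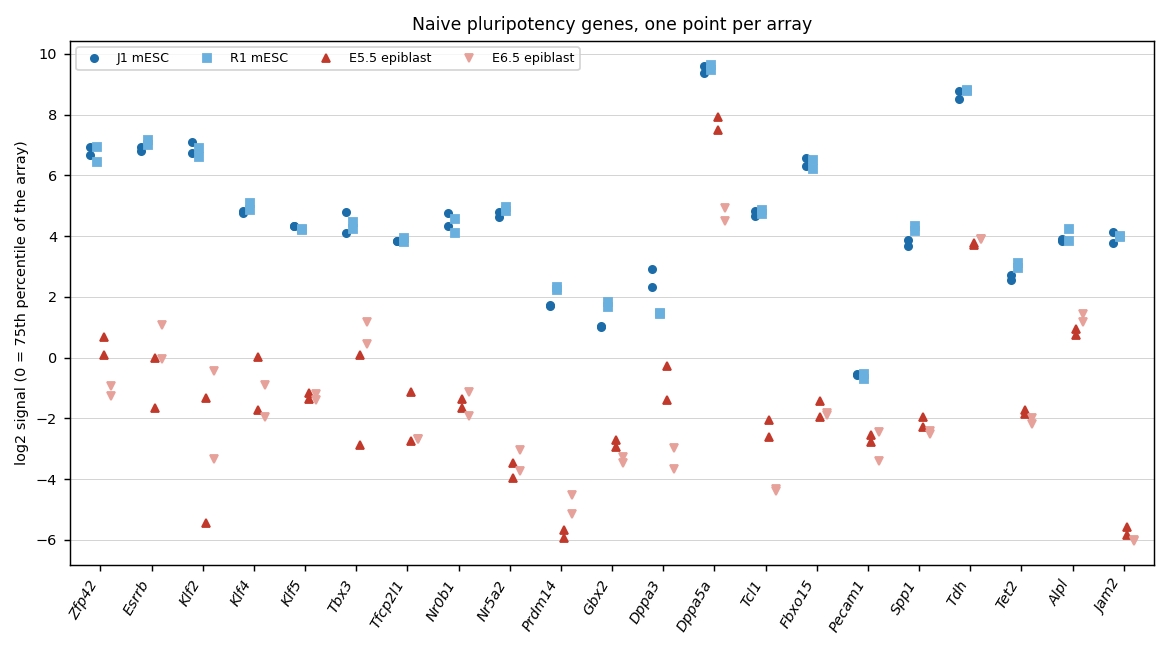
Levels of naive pluripotency genes (log2 signal, 0 = 75th percentile of the array) on the 2 J1, 2 R1, 2 E5.5 and 2 E6.5 arrays, 1 point per array. For Zfp42 the 4 mESC arrays lie between 6.44 and 6.93 and the E5.5 arrays at 0.68 and 0.08, and for Dppa5a the gap is smaller, 9.37 to 9.65 against 7.5 and 7.91.

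Among the naive markers that are not transcription factors, the sizes ran more widely. Tdh, the threonine dehydrogenase of mouse ESCs, stood at 8.79 and 8.53 in J1, 8.81 and 8.78 in R1, and 3.70 and 3.79 at E5.5, a 31.6-fold difference (adjusted p = 6.79e-06). Tet2, which oxidises methylated cytosine, was higher by 4.62 ± 0.20, and Fbxo15, an F-box gene whose loss mESCs tolerate, by 8.08 ± 0.22. Dppa5a, an RNA-binding protein of pluripotent cells, was still at 7.5 and 7.91 at E5.5 and lay at 9.37 to 9.65 in the lines, a difference of 1.82 ± 0.27. At E6.5 it was at 4.93 and 4.49, below both E5.5 arrays. Dppa3 (Stella) was the member not called: it stood at 2.91 and 2.34 in J1, 1.48 and 1.42 in R1, and -1.40 and -0.28 at E5.5 (2.88 ± 1.12, adjusted p = 0.0634). Its values did not overlap between the sides. The spread in the main fit was shared with the other embryo arrays, and on the E7.5 arrays Dppa3 stood at -1.42 and -5.24. On E5.5 replicate 2, 5 of the 21 naive genes were more than 2-fold above replicate 1. Without replicate 1 the list had 20 calls higher, and without replicate 2 it also had 20.

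Of 10 core pluripotency genes, which both states share, 2 were higher and none lower, with a median of -0.01. Over all genes tested the shares were 17.6% and 14.8%, so these counts are near the background for a list of this size. Pou5f1 stood at 6.35 and 6.42 in J1, 6.66 and 6.39 in R1, and 5.18 and 5.67 at E5.5, a 2.05-fold difference (adjusted p = 0.0114). Sox2, its partner on DNA, stood at 4.35 and 4.24 in J1, 4.17 and 4.18 in R1, and 2.43 and 2.24 at E5.5, which is 3.73-fold higher in the lines (adjusted p = 7.48e-05). Both mESC lines were thus above both epiblast arrays for the pair. The single Nanog probe was well above background on all 6 arrays, at -1.09 to -0.44 in the lines and -0.27 and 0.41 at E5.5. Its difference of -0.86 ± 0.26 was under 2-fold. The same probe stood at -0.63 and -0.78 on the E7.5 ectoderm arrays, within the range of the mESC lines. On J1 in 2i it was at 0.02 and -0.12, so its level varied little over these states. The other 7 genes, Lin28a and L1td1 among them, differed by -0.44 to 0.38 and were not called. The Pou5f1 call lay near the 2-fold limit: the difference was 0.79 without E5.5 replicate 1, 0.97 without R1 replicate 1 and 0.96 without line R1, and was not called in any of these. Without E5.5 replicate 1, Nanog was called, at -1.20.

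**Figure D3:**
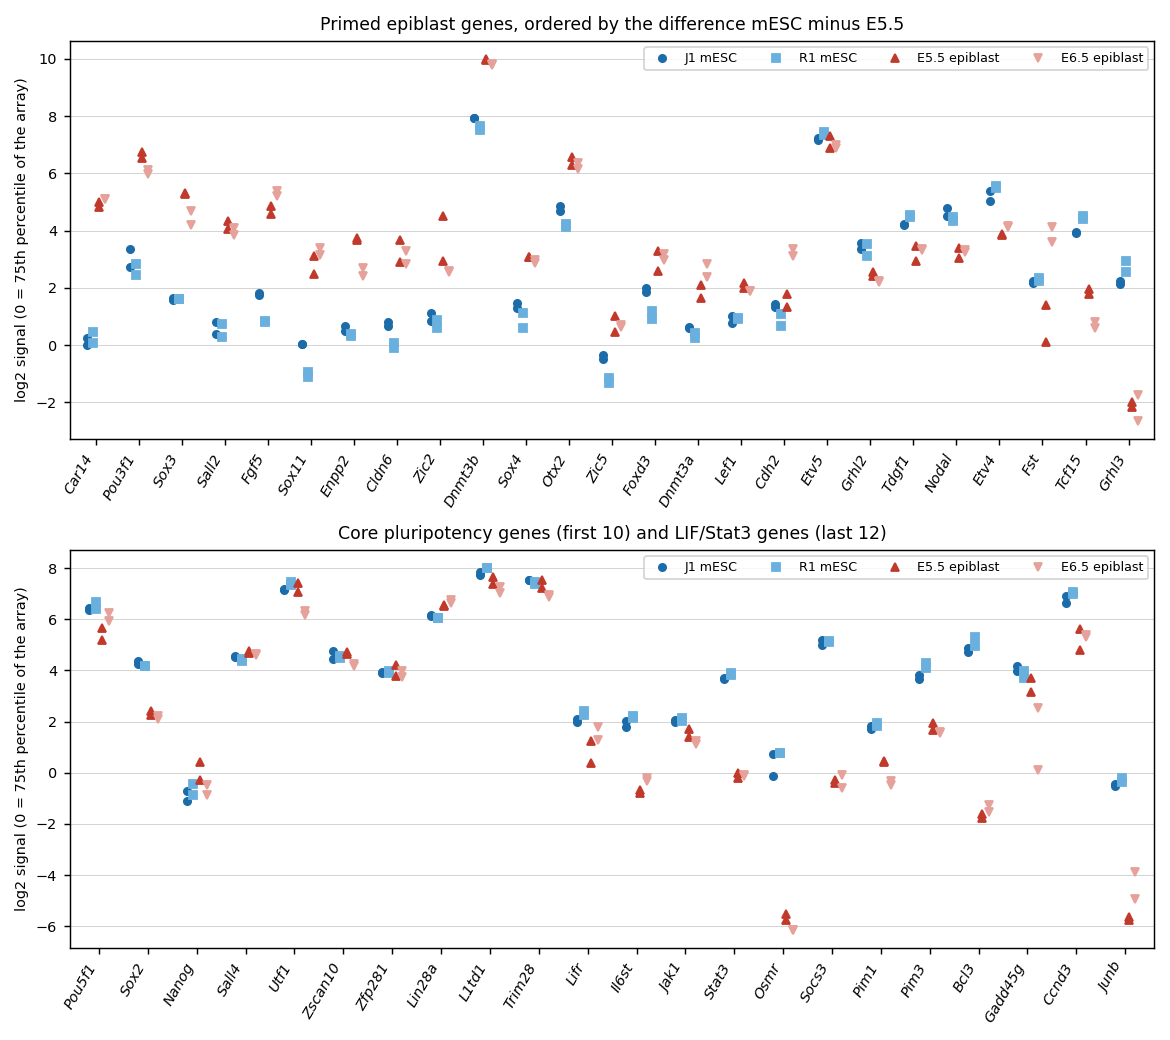
Levels of primed epiblast, core pluripotency and LIF-Stat3 genes (log2 signal, 0 = 75th percentile of the array) on the 2 J1, 2 R1, 2 E5.5 and 2 E6.5 arrays, 1 point per array. The E5.5 arrays lie above the mESC arrays for Fgf5 (4.85 and 4.58 against 0.81 to 1.81) and below them for Socs3 (-0.29 and -0.41 against 4.99 to 5.2).

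The primed epiblast list split. Of 26 genes tested, 15 were lower in the mESC lines, 6 were higher and 5 were not called, with a median of -1.51. Pou3f1 (Oct6), a POU factor that acts with Otx2 at the exit from the naive state, was 13.9-fold lower. It stood at 2.72 and 3.36 in J1, 2.83 and 2.44 in R1, and 6.74 and 6.54 at E5.5. Sox3, a SoxB1 factor, was 12.9-fold lower, with 1.59 to 1.64 on the mESC arrays against 5.31 and 5.28. Fgf5 was 10.6-fold lower (-3.41 ± 0.32, adjusted p = 0.000186) and Otx2 3.86-fold lower (-1.95 ± 0.22, adjusted p = 0.000444). Car14, a membrane carbonic anhydrase, was at 0.01 to 0.44 in the lines and 4.99 and 4.84 at E5.5, the largest called fall of a gene above background on all 6 arrays. Sall2, Sox11, Zic2, Zic5, Sox4 and Lef1 were also lower, by 1.17 to 3.65 on the log2 scale.

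The lines expressed primed genes too: Fgf5, Otx2, Pou3f1, Sox3 and Dnmt3b were well above background on all 4 mESC arrays. The levels differed between the lines for some. Fgf5 was at 1.81 and 1.76 in J1 against 0.83 and 0.81 in R1, and Sox11 at 0.03 and 0.02 in J1 against -1.11 and -0.94 in R1. Of the 26 primed genes, Sox11 alone was called between R1 and J1 (-1.05 ± 0.18, adjusted p = 0.0113).

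The primed-list genes that were higher in the lines included Grhl3, Tcf15, Fst, Etv4 and Nodal. Grhl3, a grainyhead factor of surface epithelium, was 23.2-fold higher, at 2.23 and 2.12 in J1, 2.92 and 2.54 in R1, and -1.98 and -2.18 at E5.5. Tcf15, a bHLH factor that primes cells for differentiation, was higher by 2.32 ± 0.39. Etv4, an Ets factor that responds to FGF, was higher by 1.49 ± 0.20. Follistatin (Fst) stood at 2.18 to 2.34 in the lines and at 1.40 and 0.11 at E5.5. Foxd3 (-1.45 ± 0.55, adjusted p = 0.0566) and Cdh2 (-0.41 ± 0.26) were among those not called. Fst was not called without E5.5 replicate 2 (0.85), line J1 (1.53) or line R1 (1.46), and Nodal without E5.5 replicate 1 (1.15) or line J1 (1.19). Tdgf1 (Cripto) gave 1.17 ± 1.25, but its probes ran from -3.54 to 1.17, so no direction is given.

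LIF receptor components, their kinase cascade and targets were higher in the lines for 10 of the 12 genes tested and lower for none (median 2.46). Over all genes tested, 17.6% were higher and 14.8% lower. On the receptor side, Il6st (gp130), the signalling chain, stood at 1.78 and 2.01 in J1, 2.21 and 2.13 in R1, and -0.67 and -0.78 at E5.5, and Lifr was higher by 1.38 ± 0.31. Osmr, the oncostatin M receptor, was at least 20-fold higher. Stat3, the transcription factor of the pathway, was at 3.66 to 3.88 on the 4 mESC arrays and at -0.19 and -0.01 at E5.5, a 14.6-fold difference (adjusted p = 6.04e-06). The kinase Jak1 differed by 0.49 ± 0.19 and was not called. Among targets, Socs3, which feeds back to block the receptor, stood at 5.2 and 4.99 in J1, 5.12 and 5.14 in R1, and -0.29 and -0.41 at E5.5, a 44.2-fold difference. Bcl3, an IκB family member, was 99.6-fold higher, and Pim1, Pim3, Ccnd3 and Junb were higher too. Gadd45g (0.53 ± 0.68) was not called. Without E5.5 replicate 2 the list had 9 calls, Lifr being under 2-fold (0.96), and without replicate 1 it had 10. Osmr and Bcl3 are also expressed in other cells, and the fibroblast sum was higher on all 4 mESC arrays. Over the untreated epiblast stem cell arrays, whose fibroblast sums were 195 to 601, the median of Osmr was 0.27, against -0.13 to 0.78 in the mESC lines, and that of Bcl3 was 0.87, against 4.72 to 5.30. The part of fibroblast RNA in this list was not tested.

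The promoter of Socs3 is shown because it was the only one of the 15 promoters of the LIF-Stat3 list, 12 genes, with a palindromic Stat site in the window searched. The window held the 250 bases before the transcription start, from RefSeq on GRCm38.p6, and capitals mark TTCNNNGAA, which reads the same on both strands. The site starts at -154, on chr11:117969367-117969616, minus strand. Of all 32851 promoters, 7.02% held the motif, and of this list 6.67%.
Socs3: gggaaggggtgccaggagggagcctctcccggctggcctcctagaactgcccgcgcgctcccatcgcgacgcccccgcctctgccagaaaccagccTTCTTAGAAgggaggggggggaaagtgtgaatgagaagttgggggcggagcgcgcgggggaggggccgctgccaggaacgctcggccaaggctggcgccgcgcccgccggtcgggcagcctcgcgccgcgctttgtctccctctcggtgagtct

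Of 18 FGF pathway genes, 3 were higher and 6 lower (17.6% and 14.8% of all genes tested), with a median of -0.28 that became 0.01, with 4 lower, when arrays were scaled to their median. The ligands showed the clearest split. Fgf4, made by the inner cell mass and by mESCs, stood at 6.40 and 6.14 in J1, 6.09 and 6.16 in R1, and 5.38 and 4.95 at E5.5, a 2.05-fold difference (adjusted p = 0.0217), and had dropped to 2.40 and 2.55 at E6.5. Fgf5, Fgf8 and Fgf15 were lower in the lines, Fgf8 by 1.92 ± 0.38 and Fgf15 by 2.41 ± 0.21. Of the receptors, Fgfr3 was lower by 1.07 ± 0.31, and the other 3 were not called. Of the feedback inhibitors, Spry2 was higher by 1.97 ± 0.15, whereas Spry1 was lower by 1.26 ± 0.14 and the phosphatase Dusp4 by 1.61 ± 0.21. Fgf4 lost its call without E5.5 replicate 2 (0.81), J1 replicate 1 (0.97), line J1 (0.96) or line R1 (1.1), and Fgfr3 without E5.5 replicate 2 (-0.67), J1 replicate 1 (-0.97) or line R1 (-0.95).

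For Nodal signalling, the ligands and antagonists were mostly higher and the receptors were not. Nodal itself stood at 4.78 and 4.51 in J1, 4.48 and 4.34 in R1, and 3.05 and 3.38 at E5.5 (1.31 ± 0.36, adjusted p = 0.0186), and Gdf3 was higher by 2.20 ± 0.21. Gdf1, a related ligand, was lower by 1.23 ± 0.21. The antagonist Lefty2 was at 3.80 to 4.24 in the lines and at -0.22 and -0.40 at E5.5, and Lefty1 at 3.48 to 4.01 against -2.19 and 0.35. The convertases that cut the Nodal precursor split, with Pcsk6 higher by 1.31 ± 0.23 and Furin lower by 1.14 ± 0.18. The receptor Acvr2a, above background on 2 of 4 mESC arrays, was lower by 1.47 ± 0.20, and none of the 5 effectors was called, Foxh1 (-0.60 ± 0.13) among them. In all, 5 of 18 Nodal genes were higher and 3 lower, against 17.6% and 14.8% of all genes tested. Their median of -0.15 became 0.13, with 1 lower, under scaling to the array median. The smaller of these calls were lost when some samples were left out: Nodal (1.15 without E5.5 replicate 1 and 1.19 without line J1), Gdf1 (-1.0 without E5.5 replicate 1), and Pcsk6 and Furin (0.99 and -0.89 without line R1).

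BMP genes had 3 of 17 higher and 4 lower, against 17.6% and 14.8% of all genes tested. For a list of this size these counts are near the background. The median of -0.24 became 0.05, with 2 lower, under scaling to the array median. The ligand Bmp4 stood at 4.11 and 3.72 in J1, 4.42 and 4.41 in R1, and 0.86 and 0.52 at E5.5, and Bmp7 was higher by 3.04 ± 0.16. The receptor Bmpr1a and its effector Smad1 were lower by 1.15 ± 0.20 and 1.29 ± 0.21, though a second Smad1 probe gave -0.25. Of the targets, Msx1 and Id2 were lower, Id4, above background on 1 of 2 E5.5 arrays, was higher, and Id1 and Id3 (-0.85 ± 0.26 and -0.78 ± 0.16) were under 2-fold. Without E5.5 replicate 1, Bmpr1a (-0.93) and Id2 (-1.14) were not called and Id1 (-1.03) was. Id2 was also not called without E5.5 replicate 2 (-1.05) or line R1 (-0.94).

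Wnt genes had 9 of 36 higher and 9 lower (median -0.59), against 17.6% and 14.8% of all genes tested. Scaling to the array median gave 11 higher and 5 lower (median -0.30). The transcription factors of the pathway leaned to the embryo. Lef1, Tcf7 and Tcf7l2 were lower in the lines by 1.17 ± 0.22, 1.19 ± 0.14 and 1.51 ± 0.31, and Tcf7l1 (-0.67 ± 0.22) and Ctnnb1, β-catenin (-0.63 ± 0.14), were under 2-fold. A second Tcf7l2 probe gave -0.49. Of the receptors, Fzd2 and Fzd7 were lower and Fzd5 and Fzd10 higher. The targets T (Brachyury), Sp5 and Cdx1 were higher. T stood at 1.65 and 1.45 in J1, 0.54 and 0.10 in R1, and -3.13 and -3.62 at E5.5, where 1 of the 2 arrays was above background. At E6.5 it was at 2.95 and 3.06. T therefore stood between the E5.5 and E6.5 epiblast in both lines.

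The genes of the primitive streak, the site where mesoderm forms, were split. Of 10 tested in that list, Eomes, Fgf8, Evx1 and Kdr were lower in the lines, T and Pdgfra were higher, and 4 were not called. Over all genes tested, 14.8% were lower and 17.6% higher. Eomes stood at 1.12 and 0.84 in J1, 0.57 and 0.18 in R1, and 3.08 and 2.52 at E5.5. Pdgfra, above background on 1 of 2 E5.5 arrays, is also on the fibroblast list, and was not called without E5.5 replicate 1 (1.09), line J1 (2.30) or line R1 (2.41). Evx1 was not called without line R1 (-1.12). Kdr was lower by 1.5 ± 0.19 at its brightest probe, while the mean of its probes gave 0.04. Of 11 neural genes, Pax6, above background on 2 of 4 mESC arrays and on no E5.5 array, was at least 2.16-fold higher and Zic1 was lower (-1.59), and 3 were higher without E5.5 replicate 2.

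**Figure D4:**
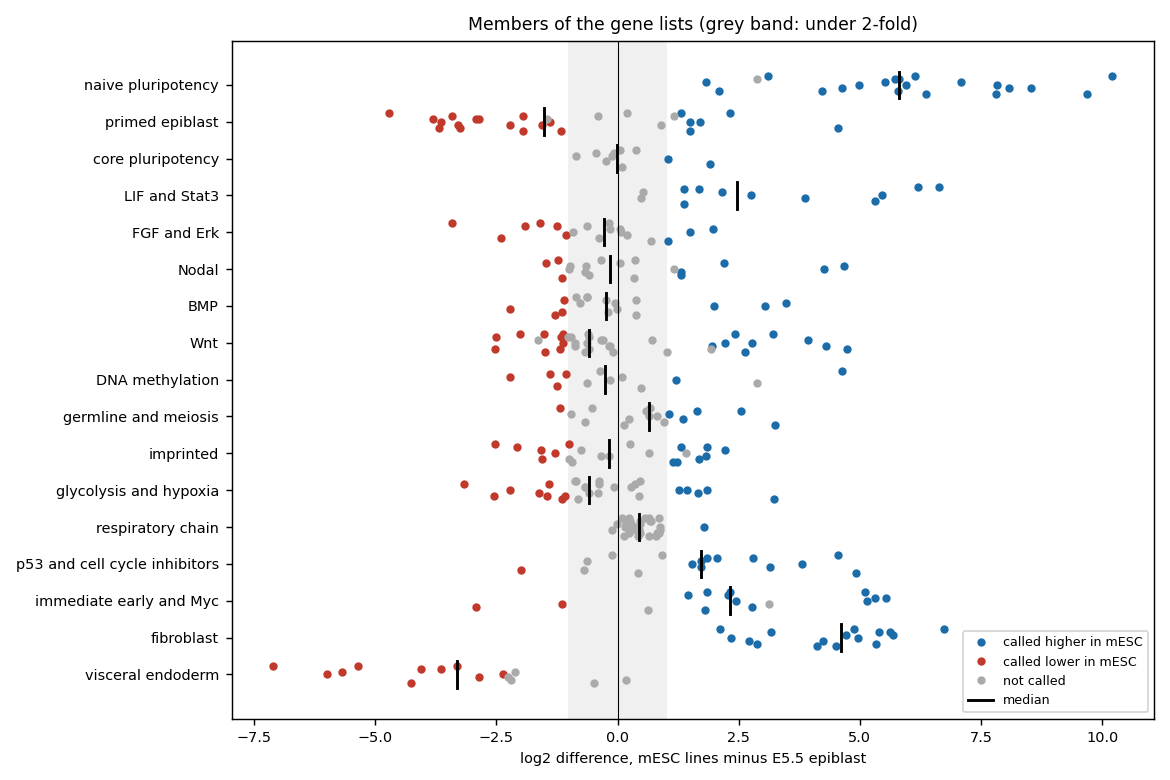
Log2 difference, mESC lines minus E5.5 epiblast, of every tested member of the gene lists, 1 point per gene, with called genes coloured by direction and a bar at each list's median. The naive list has a median of 5.80 and the fibroblast list 4.61, while the core pluripotency list has -0.01 and the visceral endoderm list -3.31, and 0.05 is the median of all genes tested.

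Of 5 methyltransferase genes 1 was higher and 2 were lower, and of 4 demethylation genes also 1 was higher and 2 were lower. The de novo methyltransferase Dnmt3b stood at 7.92 and 7.92 in J1, 7.64 and 7.51 in R1, and 10 and 9.95 at E5.5, which is 4.68-fold lower in the lines (adjusted p = 7.79e-05), and Dnmt3a was lower by 1.40 ± 0.22. Their inactive cofactor Dnmt3l was higher by 1.20 ± 0.18, at 5.66 to 6.16 against 4.89 and 4.55, and had dropped to 1.85 and 1.90 at E6.5. Dnmt1, the maintenance enzyme, differed by -0.37 ± 0.15 and was not called. On the demethylation side, Tet2 was higher by 4.62 ± 0.20, Tet1 differed by 0.48 ± 0.20, not called, and Tet3 and the glycosylase Tdg were lower by 1.07 ± 0.28 and 1.24 ± 0.24. In all, 2 of 12 were higher and 4 lower, against 17.6% and 14.8% of all genes tested. Their median of -0.27 became 0.02, with 2 lower, under scaling to the array median. Without E5.5 replicate 2 the lower calls were 2, with Tet3 at -0.92 and Tdg at -0.89. Tet3 was also not called without R1 replicate 1 (-0.81) or line J1 (-0.96).

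Germline and meiosis genes, whose promoters are known targets of methylation after implantation, were higher for 5 of 16 and lower for 1, with a median of 0.65, against 17.6% and 14.8% of all genes tested. Tex19.1, which holds retroelements in check, was 5.81-fold higher, at 6.64 and 6.08 in J1, 6.0 and 5.89 in R1, and 3.59 and 3.64 at E5.5. Tdrd12 and Mael, of the piRNA pathway, were higher by 3.24 ± 0.71 and 1.34 ± 0.29, Sohlh2 by 1.64 ± 0.21 and Stk31 by 1.07 ± 0.24. Slc25a31, the germ cell ADP/ATP carrier, was lower by 1.19 ± 0.22. Ddx4 (Vasa) stood at 0.84 and 0.69 in J1, 0.58 and 0.25 in R1, and 1.66 and 1.45 at E5.5, an uncalled difference of -0.96 ± 0.30. Hormad1, of meiotic chromosomes, was at 0.21 to 0.97 in the lines at its brighter probe, -0.02 and -0.20 at E5.5, and -4.47 and -3.53 at E6.5. In 14 of the 16 genes (87.5%) both E6.5 arrays lay below both E5.5 arrays, against 25% of all genes tested and 8 of 21 naive genes (38.1%). Slc25a31 was not called without E5.5 replicate 1 (-0.98), nor Stk31 without E5.5 replicate 2 (0.81), R1 replicate 1 (0.93) or line J1 (0.78). Ddx4 was called lower without R1 replicate 1 (-1.04) or line J1 (-1.14).

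Promoters of germline genes are printed because the list shared a sequence feature that was not used to choose it. The E-box CACGTG, which dimers containing Max bind, lay within the 250 bases before the start in 14 of 22 germline promoters (63.6%, 11 of 17 genes with an entry), in 13.3% of LIF-Stat3 promoters, in 12.5% of naive promoters and in 6.02% of all 32851 promoters. The motif holds a CpG and reads the same on both strands, and the germline windows were rich in CpG, with a median of 16.5 per window against 6.0 over all promoters, 8.0 for the naive list and 19 for the LIF-Stat3 list. A match describes the letters only. The windows below are RefSeq sequence on GRCm38.p6, 5′ to 3′ on the gene's strand, with the E-box in capitals. Mael lies at chr1:166238745-166238994 (minus strand, E-box at -223), Stk31 at chr6:49395289-49395538 (plus, -55), Slc25a31 at chr3:40708621-40708870 (plus, -93), Hormad1 at chr3:95559427-95559676 (plus, -57 and -20) and Ddx4 at chr13:112652311-112652560 (minus, -29). Tex19.1 is shown as a member without the E-box and had no match in its window at chr11:121145893-121146142 (plus).
Mael: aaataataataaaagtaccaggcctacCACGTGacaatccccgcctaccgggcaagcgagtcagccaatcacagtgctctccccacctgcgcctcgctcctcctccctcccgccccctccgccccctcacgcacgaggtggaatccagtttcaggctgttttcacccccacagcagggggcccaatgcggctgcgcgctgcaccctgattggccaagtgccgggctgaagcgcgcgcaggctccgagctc
Stk31: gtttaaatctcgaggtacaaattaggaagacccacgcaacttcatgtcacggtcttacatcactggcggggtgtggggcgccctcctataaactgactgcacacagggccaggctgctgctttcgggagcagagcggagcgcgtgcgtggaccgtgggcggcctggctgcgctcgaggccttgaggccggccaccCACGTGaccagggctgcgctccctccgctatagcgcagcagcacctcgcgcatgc
Slc25a31: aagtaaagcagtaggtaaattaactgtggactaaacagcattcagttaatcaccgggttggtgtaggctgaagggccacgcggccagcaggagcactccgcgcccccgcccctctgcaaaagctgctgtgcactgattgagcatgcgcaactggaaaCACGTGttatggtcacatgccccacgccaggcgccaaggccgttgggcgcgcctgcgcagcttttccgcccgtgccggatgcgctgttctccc
Hormad1: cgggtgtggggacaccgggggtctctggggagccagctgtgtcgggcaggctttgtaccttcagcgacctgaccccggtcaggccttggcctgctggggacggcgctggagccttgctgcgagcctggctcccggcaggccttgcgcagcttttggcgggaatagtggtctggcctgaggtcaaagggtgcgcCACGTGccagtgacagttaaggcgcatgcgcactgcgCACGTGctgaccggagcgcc
Ddx4: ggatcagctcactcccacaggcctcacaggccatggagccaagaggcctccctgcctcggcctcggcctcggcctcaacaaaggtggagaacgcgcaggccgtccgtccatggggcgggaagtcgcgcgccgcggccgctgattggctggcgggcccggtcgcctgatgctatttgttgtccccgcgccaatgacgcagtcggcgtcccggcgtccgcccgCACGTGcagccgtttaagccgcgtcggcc
Tex19.1: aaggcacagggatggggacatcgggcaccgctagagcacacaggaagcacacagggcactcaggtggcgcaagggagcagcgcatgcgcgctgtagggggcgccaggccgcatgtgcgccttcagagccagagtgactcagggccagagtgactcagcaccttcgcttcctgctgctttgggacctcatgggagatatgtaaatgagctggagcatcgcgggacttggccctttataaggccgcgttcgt
Mael and Stk31 were higher in the lines, Slc25a31 lower, and Hormad1 and Ddx4 not called, so genes with the E-box were found in each class.

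Imprinted genes had 7 of 21 higher and 6 lower, against 17.6% and 14.8% of all genes tested. Scaling to the array median gave 8 higher and 4 lower. Of the Dlk1-Dio3 cluster, the maternally expressed non-coding RNA Meg3 stood at 2.30 and 2.88 in J1, 2.43 and 2.68 in R1, and 4.63 and 4.65 at E5.5, which is 4.19-fold lower in the lines. Its neighbour Mirg was lower by 1.29 ± 0.22, and the paternally expressed Dlk1 was higher by 1.31 ± 0.34. On the 2 arrays of J1 in 2i, Meg3 was at 4.49 and 4.25, near the epiblast, and Mirg at 3.45 and 3.15. Snrpn, Magel2, Peg3 and Grb10 were lower in the lines, and Impact, Zrsr1, Phlda2 and Slc22a18 were higher. Other probes of Snrpn and Impact gave differences as small as -0.16 and 0.38. Plagl1 was higher at its brightest probe (2.22 ± 0.20), but its probes ran from -1.7 to 2.29. Peg3 (-1.01 ± 0.20) was not called without E5.5 replicate 2 (-0.73), J1 replicate 1 (-0.97), R1 replicate 2 (-0.94) or line R1 (-0.95), nor Dlk1 without E5.5 replicate 2 (1.27) or line J1 (0.86).

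Of 15 glycolytic enzymes 5 were lower in the lines and 2 higher (median -0.59), of 4 transporters 1 was lower and 1 higher, and of 8 hypoxia response genes 2 were lower and 2 higher (median 0.37). The 27 together had 8 lower and 5 higher (median -0.59), against 14.8% and 17.6% of all genes tested. Scaling to the array median gave 6 lower and 5 higher (median -0.30). Slc16a3 (Mct4), which exports lactate, was 9.01-fold lower, at 4.41 and 4.4 in J1, 4.44 and 4.05 in R1, and 7.52 and 7.47 at E5.5. Ldha, lactate dehydrogenase, was at 9.09 to 9.37 in the lines against 10.41 and 10.32, a 2.13-fold difference (adjusted p = 0.000749). Tpi1, Pgk1, Pfkl and Pkm were lower by 1.15 to 1.62 on the log2 scale. Bnip3 and Egln3, targets of hypoxia-inducible factors, were lower by 2.21 ± 0.17 and 2.55 ± 0.32, and Ndrg1 and Ddit4, which hypoxia also induces, were higher by 3.22 ± 0.59 and 1.65 ± 0.21. The enzymes were not lower throughout: Hk1, the first enzyme of the path, was higher by 1.85 ± 0.25, and so were the glucose transporter Slc2a3 (1.27 ± 0.25) and Pfkp at its brightest probe (1.43 ± 0.18, probes from -0.22 to 1.43). Aldoa (-0.86 ± 0.16) and Eno1 (-0.82 ± 0.13) were under 2-fold. Slc2a3 was not called without E5.5 replicate 1 (0.95).

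Respiratory chain genes differed slightly and nearly all in 1 direction. The difference was above 0 in 32 of 34, against 52.2% of all genes tested, and the median was 0.44. Only Cox7a1, a subunit isoform of cytochrome oxidase, was called, at 3.73 to 4.34 in the lines (1.79 ± 0.19, adjusted p = 0.000351). Uqcrc1 (0.87 ± 0.15), Ndufv1 (0.88 ± 0.19) and Sdhb (0.86 ± 0.20) were among 14 genes with an adjusted p under 0.05 and a difference under 2-fold. With Cox7a1, 15 of 34 had an adjusted p under 0.05, a smaller share than the 7529 of 13502 over all genes tested. Without E5.5 replicate 1 there were 3 calls, with Ndufv1 at 1.03 and Sdhb at 1.07 among them. Scaling to the array median, which moved the median of all genes to 0.34, gave 7. The median of E5.5 replicate 2 minus replicate 1 was -0.27 in this list and -0.13 over all genes tested. The mean level of the list was 6.18 on replicate 1 and 5.95 on replicate 2, against 6.38 to 6.67 on the mESC arrays. In threonine and one-carbon metabolism 2 of 11 were higher, Tdh and Shmt1 (1.20 ± 0.15), near the 17.6% of all genes tested.

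Targets of p53 and the cell cycle inhibitors were higher in the lines for 10 of 16 genes and lower for 1. The shares over all genes tested were 17.6% and 14.8%. The list's median was 1.73, or 1.63 with genes not above background on 1 side at their bounds. Cdkn1a (p21) stood at 2.91 and 3.06 in J1, 3.06 and 2.99 in R1, and -0.83 and 0.56 at E5.5. Mdm2, the p53 ubiquitin ligase, was higher by 1.72 ± 0.18, Bbc3 (Puma) by 2.06 ± 0.19, Ccng1 by 1.54 ± 0.20 and Perp by 3.80 ± 0.20. Pmaip1 (Noxa), another p53 target that promotes cell death, was lower by 1.99 ± 0.20, at 1.86 to 2.09 against 4.05 and 3.92. Cdkn2a and Cdkn2b, inhibitors of the G1 kinases, were higher by 4.91 ± 0.32 and 4.55 ± 0.26, and Cdkn2b was above background on 1 of 2 E5.5 arrays. In the untreated epiblast stem cell arrays, with fibroblast sums of 195 to 601, the median was 3.70 for Cdkn2a, 1.46 for Cdkn2b and 3.14 for Cdkn1a. The mESC arrays were at 2.85 to 3.99, 0.59 to 1.23 and 2.91 to 3.06. The part of feeder RNA in them was not tested. Of 5 G1 cyclins and kinases, Ccnd2 (3.21 ± 0.23) and Ccnd3 (1.68 ± 0.27) were higher. Ccnd2 stood at 2.14 to 3.2 in the lines, against a median of 3.17 over the untreated epiblast stem cell arrays. Ccnd3 stood at 6.62 to 7.07, against 5.73. The part of feeder RNA in these 2 genes was not tested.

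Immediate early genes, which cells switch on within minutes of a signal, share a list with the Myc family. Of its 15 genes, 11 were higher in the lines and 2 lower (median 2.32), against 17.6% and 14.8% of all genes tested. Egr1 stood at 4.53 and 4.85 in J1, 5.05 and 4.74 in R1, and -1.91 and 0.42 at E5.5. Fos was at 1.25 to 2.50 in the lines and at -3.37 and 1.08 at E5.5 and was not called (3.12 ± 1.95). Egr2, Atf3 and Junb were above background on no E5.5 array, with bounds of at least 20.7-fold, 19-fold and 10.6-fold. Over the untreated epiblast stem cell arrays the median of Atf3 was 0.31, against 0.59 to 0.92 in the lines. For Egr2 it was -3.67, against 0.27 to 0.78, and for Junb -3, against -0.52 to -0.21. The part of feeder RNA in these 3 genes was not tested. On E5.5 replicate 2, 5 of the 15 were over 2-fold above replicate 1, and without replicate 1 the calls were 7 higher and 2 lower. Myc and Mycl were the members that were lower, Myc by 1.14 ± 0.18 and Mycl by 2.93 ± 0.33, while Mycn differed by 0.63 ± 0.15. Genes of the amino acid stress response were higher for 7 of 16 and lower for none, against the same shares of all genes tested. Trib3 was higher by 2.19 ± 0.29 and Asns by 1.1 ± 0.27. Asns was not called without E5.5 replicate 2 (0.74), J1 replicate 1 (0.98) or line R1 (1.07). Myc was not called without R1 replicate 2 (-0.99) or line R1 (-0.92).

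Epithelial genes were lower in the lines for 5 of 12 and higher for none, and mesenchymal genes were higher for 6 of 8. The shares over all genes tested were 14.8% lower and 17.6% higher. The E5.5 epiblast is an epithelium. Ocln (occludin) was above background on both E5.5 arrays and on no mESC array, at least 4.65-fold lower. Cldn7 was at 2.54 to 2.92 in the lines and 5.13 and 5.0 at E5.5, and Epcam was lower by 2.16 ± 0.22. Cdh1 (E-cadherin) differed by -0.81 ± 0.14, under 2-fold. Krt18, a keratin, stood at 4.83 and 3.96 in J1, 2.87 and 2.74 in R1, and 6.14 and 6.17 at E5.5. On the mesenchymal side, Vim (3.08 ± 0.15), Fn1 (2.73 ± 0.39) and Zeb1 (at least 16.5-fold) were higher. Fibroblasts express these too: the median of Vim over the untreated epiblast stem cell arrays was 6.10, against 6.03 to 6.27 in the mESC lines. The fibroblast list was itself higher for 16 of 16 genes (median 4.61, or 3.78 with genes not above background at E5.5 at their bounds), with Col1a2 at 4.36 and 5.0 in J1, 5.31 and 5.37 in R1, and 0.18 and 0.40 at E5.5. Its part in the mesenchymal genes was not tested. Of 18 basement membrane and integrin genes, 6 were higher and 2 lower, against 17.6% and 14.8% of all genes tested. Itgb7, an integrin chain, was higher by 5.70 ± 0.15, at 3.12 to 3.24 in the lines and -2.38 and -2.66 at E5.5, and Itga3 was lower by 1.83 ± 0.31.

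Visceral endoderm markers were lower in the lines for 10 of 15 (median -3.31, or -2.85 with genes not above background in the lines at their bounds), and this list differed between the E5.5 arrays. On E5.5 replicate 2 the median was 3.34 above replicate 1, and 14 of the 15 were over 2-fold higher. Ttr stood at 0.12 and 3.44 at E5.5 and at -5.54 to -5.13 in the lines. Without replicate 1 there were 14 calls, and without replicate 2 there were 10, all lower. Endoderm factors, which visceral and definitive endoderm share, followed the same array: all 7 were over 2-fold higher on E5.5 replicate 2, and 2 of 7, Foxa1 and Gata4, were called lower in the lines, where Foxa1 was above background on 2 of 4 arrays and Gata4 on 1. Without E5.5 replicate 2, Foxa1 (-1.24) and Gata4 (-1.89) were not called, nor without line R1 (-1.36 and -2.54), and Foxa1 also not without J1 replicate 2 (-2.28). Of the extraembryonic ectoderm and trophoblast list, 2 of 10 were higher and 3 lower, with 1 lower without line R1. Over all genes tested, 17.6% were higher and 14.8% lower, so for a list of this size the trophoblast counts are near the background. Tfap2c, a factor that mESCs and trophoblast share, was at 4.23 to 4.94 in the lines and -1.89 and -4.27 at E5.5, where it was above background on 1 of 2 arrays.

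The lines were then taken apart. J1 against E5.5 gave 4200 calls (31.1%) and R1 against E5.5 gave 4506 (33.4%). These contrasts share the E5.5 arrays, so they are set side by side only. The naive list had 21 of 21 genes higher in each, with medians of 5.85 in J1 and 5.82 in R1, and the primed list had 15 lower in J1 and 16 in R1, with medians of -1.23 and -1.93. Between the lines, 82 genes (0.607%) were called, 40 higher in R1 and 42 higher in J1, and 50 without R1 replicate 2. Among genes also called between the mESC lines and E5.5, the 6 with the greatest fitted difference were all higher in R1. They were Mmp13 (2.62 ± 0.55, above background on 1 of 2 J1 arrays), Actg2 (2.41 ± 0.44), Lrrc17 (2.29 ± 0.42), Gzme (2.2 ± 0.47), Col10a1 and Prg4. Col10a1 and Prg4 were not well above background in J1, so only bounds hold, at least 6.02-fold and at least 5.53-fold higher in R1. Several of these are genes of cartilage, joint or contractile cells. The fibroblast sum was 122 and 163 in J1 and 166 and 178 in R1, and its part in this difference was not tested.

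Genes higher in J1 included 3 of the anterior streak and its endoderm. Cer1, a secreted antagonist of Nodal, BMP and Wnt, stood at 1.30 and 0.87 in J1 and at -4.70 and -4.89 in R1 (fitted difference -5.88 ± 0.92, adjusted p = 0.00595). Lhx1 stood at -0.88 and -0.91 in J1 against -3.96 and -3.18 in R1 (-2.67 ± 0.40, adjusted p = 0.00389), and Gsc at 0.52 and 0.40 against -1.87 and -2.46 (-2.63 ± 0.44, adjusted p = 0.00994). Cer1 and Lhx1 were not well above background in R1, so their fitted sizes are not firm, and they were at least 16.6-fold and at least 4.2-fold higher in J1. The lines lay on either side of the E5.5 values for Gsc, -0.91 and -0.24. The mean of the lines against E5.5 was not called for any of the 3, but Gsc and Lhx1 were called lower without line J1 (-1.59 and -2.29), and Gsc was called higher without line R1 (1.04). Krt18 was also lower in R1 (-1.59 ± 0.33, adjusted p = 0.0403). J1 and R1 were on different slides, and slide and line cannot be told apart in this contrast.

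**Figure D5:**
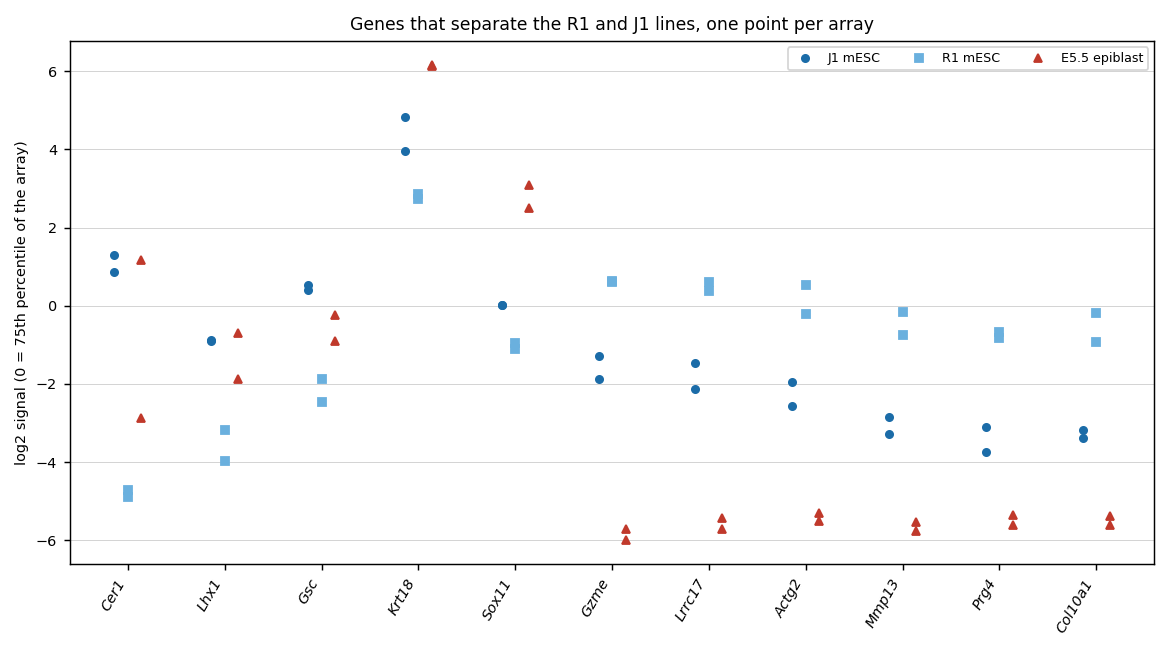
Levels (log2 signal, 0 = 75th percentile of the array) of genes called between R1 and J1, on the 2 J1, 2 R1 and 2 E5.5 arrays, 1 point per array. Cer1 lies at 1.30 and 0.87 in J1 and -4.70 and -4.89 in R1, and Col10a1 at -3.18 and -3.38 in J1, not above background, and -0.92 and -0.19 in R1.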

How the data were processed

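Expression was measured on 24 Agilent 1-colour mouse arrays in 12 groups of 2, of which 6 arrays form this comparison. Per the file headers, the deposited intensity values are Agilent's processed signals, background-subtracted on each array, and the array design used build mm9. The signals were extracted with Agilent Feature Extraction 10.5.1.1, per the submitters' processing notes. The authors' deposited log2 table followed the same arrays, scaled to the 75th percentile, with every probe centred on its median (r of at least 0.99999 with the array's own signals and at most 0.796 with any other array's), and served as an alternative. The labels' protocols name total RNA labelled with Cy3.

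Control spots and outlier-flagged spots were left out. The log2 processed signal was set relative to each array's 75th percentile (signals of 124.5 to 199.6 on the 6 arrays). Each gene took the value of its brightest probe by mean signal, out of 20616 genes with a usable probe, of which 5454 had several. To be tested, a gene had to pass Agilent's well-above-background flag on both arrays of J1, R1 or E5.5. Of the probes, 40.95% to 47.91% were above background on these arrays, none was saturated, and their number limits the precision. Replicates correlated at r = 0.9813 to 0.9841.

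The main fit in limma 3.58.1 (R 4.3.3) took the J1 mean and the R1 mean as 1 group and the 6 embryo arrays as 3 groups. The contrasts of single lines used all 24 arrays as 12 groups. Tests were two-sided, with Benjamini-Hochberg adjustment over all genes tested and a call at an adjusted p under 0.05 and at least 2-fold. On simulated data for the main comparison, over 13502 genes, 90% of genes changed by a log2 of 3 were called in the right direction. The share was 61% for a log2 of 1.5, and 14 of 13302 unchanged genes were called. Only 100 genes were changed at each size, and slide, scan day and feeder differences were not simulated. These rates therefore need not hold for the real comparison, where 32.4% of genes were called. Alternatives were the background correction, normalization, filter, probe rule, variance model, samples in the fit, slide, replicate block and samples left out. The files held no mean signal, so normexp used the median signal and background.

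Genes named are the 12 largest rises and falls and the 6 largest bounds in each direction, members of gene lists, 6 genes that must always be named, and the 6 largest differences between the lines. Predicted and unnamed genes were passed over in the ranked parts of this rule, and a few list members are not reported here. The genes lower in R1 were listed as members of the lists. The members and lists were chosen with earlier results of these data known. Promoter windows came from RefSeq on GRCm38.p6 and no probe coordinates are given, since the builds differ.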

Additional observations from a re-analysis of the deposited data

Results flagged for a closer look

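For 6 genes, 1 of the 4 mESC arrays stood apart from the other 3 by Dixon's test. This happens by chance in about 5% of groups, and 219 genes were examined. Tdh stood at 8.53 on J1 replicate 2 and at 8.78 to 8.81 on the others, and Osmr at -0.13 on J1 replicate 1 against 0.75 to 0.78. Cox7a1 stood at 4.34 on J1 replicate 1 against 3.73 to 3.81. R1 replicate 2 stood apart for Bmpr1a (1.05 against 1.20 to 1.22), Tdg (0.49 against 0.89 to 0.94) and Slc16a3 (4.05 against 4.4 to 4.44). In each of these genes all 4 arrays stayed on one side of both E5.5 arrays.

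The difference from E5.5 itself differed between the lines, by the limma test of R1 minus J1 with adjusted p under 0.05, for 11 of the named genes. Higher in R1 were Col10a1 (2.72, adjusted p = 0.000497), Prg4 (2.68, adjusted p = 0.000717), Mmp13 (2.62, adjusted p = 0.0403), Actg2 (2.41, adjusted p = 0.0164), Lrrc17 (2.29, adjusted p = 0.0175) and Gzme (2.2, adjusted p = 0.0446). Lower in R1 were Cer1 (-5.88, adjusted p = 0.00595), Lhx1 (-2.67, adjusted p = 0.00389), Gsc (-2.63, adjusted p = 0.00994), Krt18 (-1.59, adjusted p = 0.0403) and Sox11 (-1.05, adjusted p = 0.0113). For Col10a1, Prg4, Cer1 and Lhx1 these are fitted values, since 1 line was not above background, and the bounds are at least 6.02-fold, 5.53-fold, 16.6-fold and 4.2-fold.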

How the results depend on the processing

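The naive and primed counts were within 1.5 times under every alternative run, with 20 naive genes higher and 15 primed genes lower in each fit that left out a sample or line. The count of calls, 4375, fell to 2198 with normexp (1469 higher, 729 lower), to 2743 when genes had to be above background on all 6 arrays (1129 lower; fewer genes were tested), and was 7529 with no fold minimum (4054 higher, 3475 lower). The other scalings, probe rules and models gave 4068 to 4799. With normexp, J1 gave 2114 calls, R1 gave 2382 and R1 against J1 gave 38, and the last gave 46 with only the 6 arrays in the fit. The cause of the normexp counts was not tested. Leaving out samples gave 4063 to 4416 calls (2178 to 2489 higher, 1885 to 2008 lower), 3813 to 4117 for J1, 4215 to 4406 for R1 and 50 to 123 between the lines. Slide as a random block gave 4407.

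The replicate numbers did not pair the samples (correlations of 0.061, 0.024 and 0.063 between replicate differences), and the fit with a replicate block gave 4437 calls, 2425 higher and 2012 lower. Directions turned for 6 genes not called or with several probes: Gsc (0.05 with normexp, 0.01 under scaling to the array median, 0.06 without E5.5 replicate 2, and -1.59 to 1.04 over the lines left out), Cer1 (1.02 without E5.5 replicate 2, and -3.94 to 1.95 over the lines left out), Lhx1 (-2.29 to 0.38 over the lines left out), and Hormad1 (-0.01), Kdr (0.04) and Tdgf1 (-0.68) with the mean of all probes. Genes near background on 1 side have folds that depend on that side.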

Other observations

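Some smaller gene groups were not described above. Of 5 tested Rhox homeobox genes, which cluster on the X chromosome and are expressed in germ and trophoblast cells, 4 were higher in the mESC lines. Rhox5 stood at 8.09 and 7.61 in J1, 7.71 and 7.6 in R1, and 3.58 and 5.29 at E5.5, and Rhox6 at 3.32 and 2.97 in J1, 4.22 and 4.42 in R1, and -2.62 and -0.32 at E5.5. The 4 mESC arrays lay above both E5.5 arrays for each. Of 8 genes on the array that mark the rare two-cell-like state of mESC cultures, 4 were tested. Of these, 2 were higher in the lines and 2 were not called. Zscan4f was above background on no E5.5 array and at least 17.5-fold higher in the lines. Tcstv1, Tcstv3, Tdpoz4 and Usp17lc were above background on no mESC or E5.5 array and were not tested. Of 19 Hox and Cdx genes on the array, only 5 passed the background filter and were tested. Of these, 3 were higher, against 17.6% of all genes tested. A gene could enter through the mESC arrays alone, so no conclusion is drawn from this count or from the Rhox and two-cell-like counts. Among the 3, Hoxc6 was above background on no E5.5 array (at least 10-fold higher). It stood at -0.87 to 0.07 in the lines, and its median over the untreated epiblast stem cell arrays was -0.5. The part of feeder RNA in Hoxc6 was not tested.

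Membrane genes of the immune system also differed. The 3 interferon-induced membrane genes were all higher in the lines, Ifitm1 by 3.31 ± 0.28, Ifitm2 by 1.39 ± 0.17 and Ifitm3 by 1.71 ± 0.16. Over the untreated epiblast stem cell arrays their medians were 0.49, 4.93 and 3.27. The lines were at 6 to 6.32, 5.23 to 5.4 and 4.3 to 4.69. The part of feeder RNA in these genes was not tested. B2m, the light chain of MHC class I, was at 3.32 to 3.67 in the lines and 0.64 and 0.34 at E5.5. Its median over the untreated epiblast stem cell arrays was 4.57, and the part of feeder RNA in B2m was not tested. Tapbp, which loads peptides on class I, was lower by 1.09 ± 0.15 and not called without E5.5 replicate 1.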
